A study of Mus musculus with 40 samples.

Results

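The genes Plekha7, 5730416F02Rik, Hal, Dennd3, Tnfaip8l3, Shisa3, Atp10d and Spint1, were followed over an LPS time course in bone marrow-derived macrophages (BMDMs). They are 8 of the 27179 genes in the table and were chosen by the size of the difference between Cpeb4-/- and WT cells at 6 or 9 hr, so their differences at those times are given as a description without a test. BMDMs are macrophages grown in culture from bone marrow with macrophage colony-stimulating factor, and LPS is a component of the bacterial outer membrane that activates them. Cells of 4 WT and 4 Cpeb4-/- (full knockout) mice were left untreated (0 hr) or given 10 ng/ml LPS for 1, 3, 6 or 9 hr, which gave 40 libraries. All 8 mice were adult males of mixed C57BL/6J and 129 background, and each gave 1 library at each of the 5 times. The WT mice carried the numbers 25 and 88 (batch 1) and 69 and 87 (batch 2), and the Cpeb4-/- mice the numbers 3 and 62 (batch 1) and 2 and 55 (batch 2). No cage held mice of both genotypes, so genotype and cage cannot be told apart.

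The 8 genes belong to different processes. Hal encodes histidine ammonia-lyase, which opens the degradation of histidine by turning it into urocanate. Plekha7 is a protein of epithelial adherens junctions that binds p120-catenin. Dennd3 activates the small GTPase RAB12. Atp10d belongs to the P4-ATPases, and ATP10D protein flips glucosylceramide across membranes, although RefSeq lists the gene of the mouse reference genome as a transcribed pseudogene. Tnfaip8l3 is a member of the TNFAIP8 family that carries phosphoinositides. Shisa3 belongs to a family that holds back Wnt and Fgf receptors in the endoplasmic reticulum, and Spint1 is a Kunitz-type inhibitor of the cell surface proteases that activate hepatocyte growth factor (HGF). 5730416F02Rik is a pseudogene as well. CPEB4, the protein missing in the knockout, binds cytoplasmic polyadenylation elements (CPEs) in the 3′ ends of mRNAs and regulates their poly(A) tails.

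Levels are rlog values, a log2 scale that is corrected for library size and shrunken toward each gene's mean where reads are few. They are not corrected for transcript length, so levels were compared between mice and times within a gene, never between genes. Cpeb4 itself was measured first. In WT cells it was at 7.03 to 8.13, 7.68 to 9.46, 8.82 to 10.88, 10.09 to 10.67 and 8.89 to 9.41, in the order of time. In the libraries labelled Cpeb4-/- it was at 6.88 to 7.87, 8.22 to 9.41, 9.02 to 9.47, 8.74 to 9.66 and 7.87 to 9.27. The genotypes thus separated only at 6 hr, and with limma (4 against 4 libraries) the difference had an adjusted p of 0.61 at 0 hr, 0.52 at 1 hr and 0.36 at 3 hr. Reads over the whole gene were counted, and which part the deletion removes was not analysed here, so Cpeb4 does not check the genotype of single libraries. All 9 macrophage markers were expressed, with gene means of 9.66 to 18.24. None of the T and NK cell, B cell, fibroblast or epithelial markers (0 of 4, 3, 6 and 5) reached a mean of log2 of 5, the level set for expression. Markers that did were 3 of 4 for endothelium (Pecam1, Cdh5 and Kdr), 2 of 4 for dendritic cells (Zbtb46 and Xcr1), 2 of 5 for mast cells (Kit and Gata2) and 1 of 3 for erythroid cells (Alas2). Between genotypes, 1, 1 and 2 macrophage markers were called at 0, 1 and 3 hr, 0, 1 and 1 of endothelium, 1 of mast cells at 0 hr and 1 of dendritic cells at 3 hr, and their part in the results was not tested. Of 7 neutrophil markers, 3 did (S100a8, S100a9 and Camp), and the mean of that list was 1.61 to 2.03 over the WT groups and 1.57 to 2.02 over the knockout groups. Fewer cells of a type and less RNA per cell cannot be told apart in bulk samples.

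**Figure D1:**
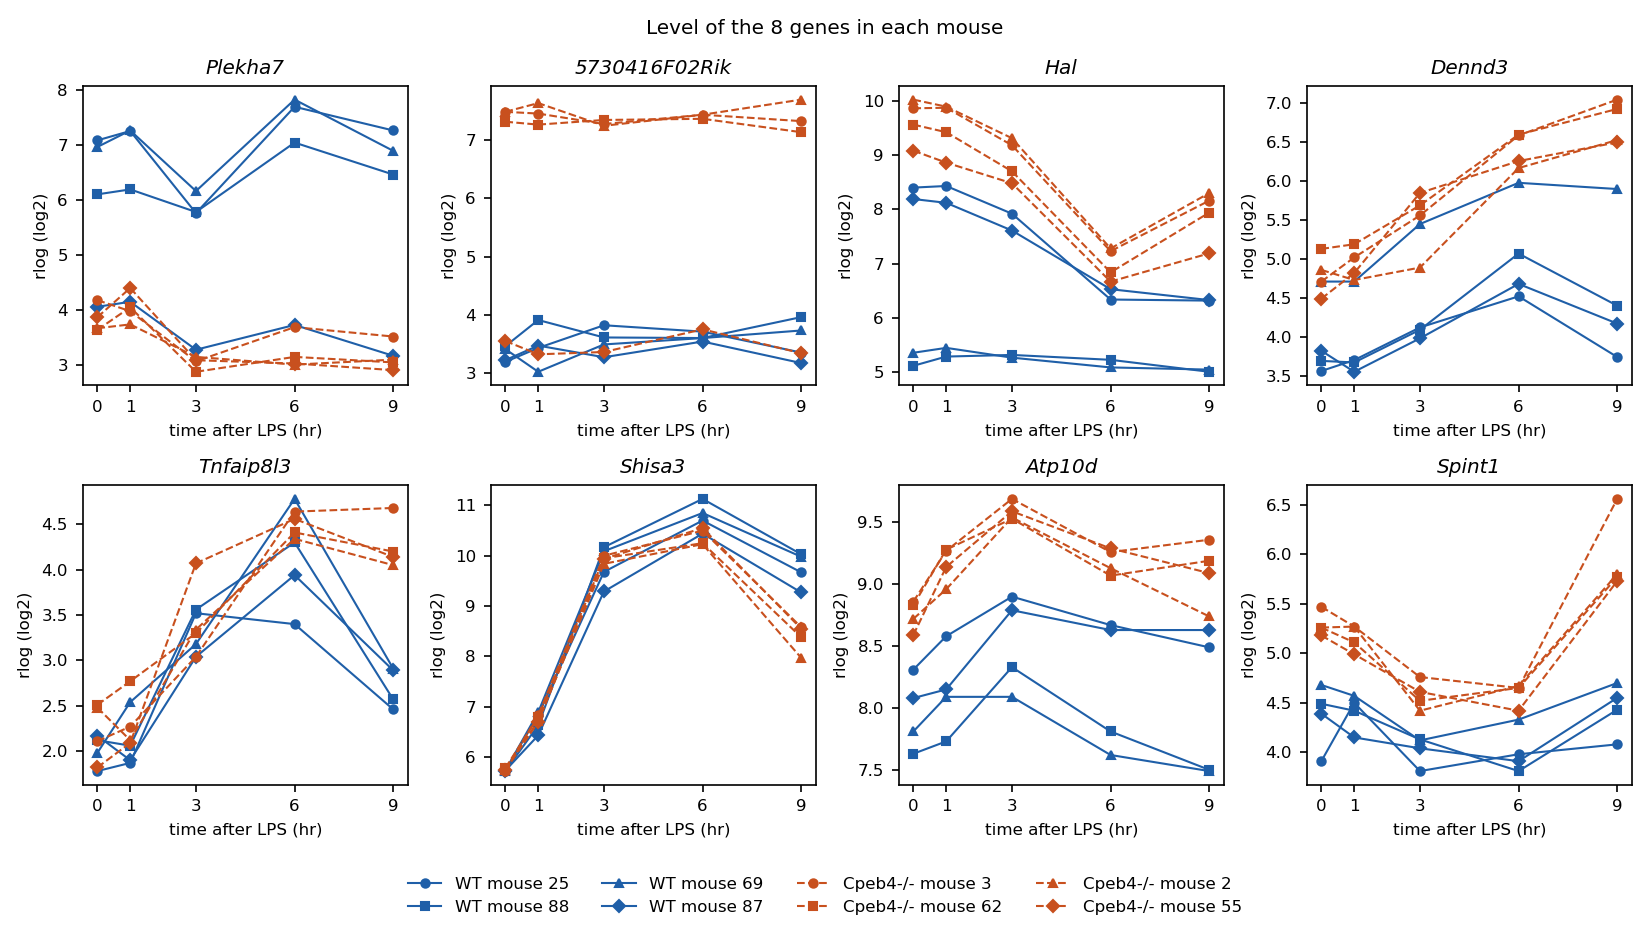
Level of each of the 8 genes (rlog, log2, vertical axis, scaled separately for each gene) against hours after LPS, with 1 line per mouse (WT solid blue, Cpeb4-/- dashed orange, 4 mice each). WT mouse 87 runs with the Cpeb4-/- mice for Plekha7, Cpeb4-/- mouse 55 runs with the WT mice for 5730416F02Rik, and the WT mice form 2 levels for Hal.

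The times before 6 hr were not used to choose the genes, but they come from the same 8 mice, so they are not an independent sample. For 6 of the 8 genes, all but Tnfaip8l3 and Shisa3, the genotypes already differed in mean before LPS by 0.79 or more on the log2 scale, in the same direction as at 6 and 9 hr. At 0 hr, 2 of the 7 genes that passed the filter on low values (Atp10d and Spint1) had an adjusted p under 0.05, against 1.31% of all 13095 genes tested. Tnfaip8l3 did not pass that filter at 0 or 1 hr. At 1 hr the same 2 of 7 were called, against 1.91% of all genes, and at 3 hr 4 of 8 (Hal, Atp10d, Spint1 and Plekha7), against 3.68%. At each of these times 6 of the genes had an unadjusted p under 0.05, as did 17.6%, 35.3% and 23.4% of all genes at 0, 1 and 3 hr. With the mouse as a random effect over the 24 libraries of 0, 1 and 3 hr, which blocks on the mouse, 5 of 7 were called at 0 hr against 2.64% of all genes, 6 of 7 at 1 hr against 27.3% and 6 of 8 at 3 hr against 8.9%. This genotype fit takes 1 correlation between libraries of a mouse, shared by all genes. Plekha7, 5730416F02Rik, Hal, Atp10d and Dennd3 differ more between mice of a genotype than most genes. For them the p-values of this fit are likely too small. The libraries of the 2 genotypes did not overlap for 4 of the 8 genes at 0, 1 and 3 hr each, against 10.5%, 15.7% and 13.6% of all genes. At 6 and 9 hr, the times used for the choice, they did not overlap for 6 of the 8 genes, beside 20.2% and 16.9% of all genes.

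**Figure D2:**
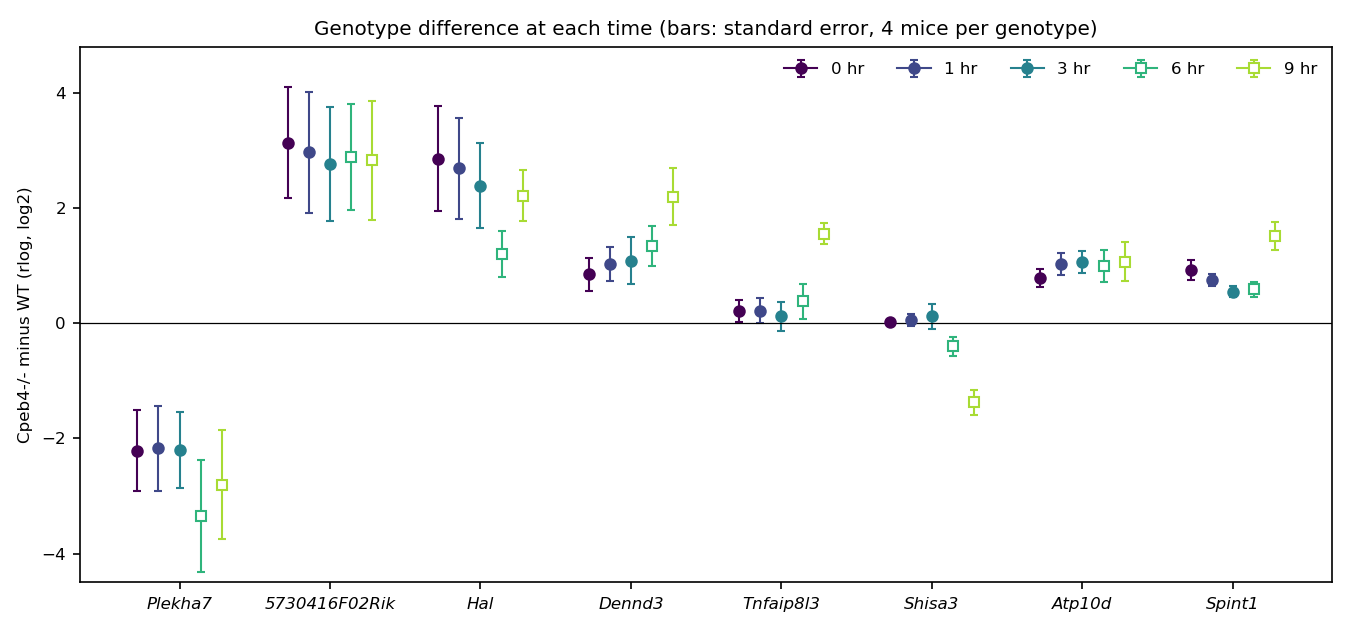
Difference between the Cpeb4-/- and the WT mean (rlog, log2, vertical axis) for each gene at the 5 times, with bars for the standard error of the difference over 4 mice per genotype and open squares for the times used to choose the genes. The difference of Plekha7, 5730416F02Rik, Hal, Dennd3, Atp10d and Spint1 is on the same side of 0 at all 5 times, whereas Shisa3 lies below 0 only at 6 and 9 hr and Tnfaip8l3 reaches 1.56 only at 9 hr.

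Plekha7 (chromosome 7, 116123485 to 116308383, mm10, protein-coding) had the largest difference of all genes at 6 hr. In the WT mice 25, 88, 69 and 87 it was at 7.08, 6.10, 6.96 and 4.06 at 0 hr, and in the Cpeb4-/- mice 3, 62, 2 and 55 at 4.18, 3.64, 3.67 and 3.87. At 6 hr the WT mice were at 7.69, 7.04, 7.82 and 3.73 and the Cpeb4-/- mice at 3.69, 3.15, 3.01 and 3.03. At 9 hr the values were 7.26, 6.46, 6.89 and 3.17 in WT and 3.52, 3.05, 3.10 and 2.91 in Cpeb4-/-. WT mouse 87 lay within the knockout range at 0, 1 and 9 hr and just above it at 3 hr (3.28 against a highest knockout value of 3.15) and 6 hr, and the other 3 WT mice lay above every knockout library at all 5 times. The difference was −2.21 ± 0.53 (SE) at 0 hr (adjusted p = 0.072 with limma), −2.17 ± 0.59 at 1 hr (0.074) and −2.20 ± 0.51 at 3 hr (0.045). With the mouse as a block the adjusted p was 0.017 at 0 hr and 0.0083 at 1 and 3 hr. Without WT mouse 87 the difference was −2.87 before LPS (adjusted p = 5.1e-05) and −2.86 after 1 hr (0.0015), and for the late times −4.30 (6 hr) and −3.73 (9 hr). The call at 3 hr was lost without any 1 of the 4 knockout mice or WT mouse 25 or 69 (adjusted p of 0.082 to 0.13), with batch as a covariate (0.067) and without the variance trend (0.085). Batch 1 alone gave −3.95 at 6 hr, and batch 2, which holds mouse 87, gave −2.75.

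Plekha7 also moved with time. From 0 to 3 hr it dropped by 0.81 in WT and by 0.79 in Cpeb4-/- cells, and it was lower in all 4 mice of each genotype. The change was called in Cpeb4-/- (adjusted p = 0.00033) and not in WT (0.42), and it was called in WT as well with the mouse as a block (0.00059) or without mouse 87 (−0.82, 0.038). From 3 to 6 hr the level rose in the 4 WT mice by 0.46 to 1.94, with the smallest rise in mouse 87, and changed by −0.13 to 0.62 in the Cpeb4-/- mice.

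5730416F02Rik (X chromosome, 109001485 to 109002296) is annotated as a transcribed pseudogene in RefSeq. Aligned with BLAST to the transcripts of Capg, an actin-capping protein of macrophages, in GENCODE vM21, it was 87.7% identical over 821 aligned bases. Other genes were not searched. A stretch of 100 bases aligned without a gap (bases 36 to 135 of the pseudogene and 122 to 221 of the Capg transcript, in its coding part) is shown to make the distance between the copies visible, with the 11 differing bases in capitals.
5730416F02Rik: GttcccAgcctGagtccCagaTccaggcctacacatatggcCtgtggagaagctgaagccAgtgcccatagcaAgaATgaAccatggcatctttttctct
Capg: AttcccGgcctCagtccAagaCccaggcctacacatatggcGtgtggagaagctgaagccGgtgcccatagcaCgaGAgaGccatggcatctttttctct
The longest run of identical bases in the whole alignment was 46, shorter than the 50-bp reads, so no whole read can match both of these transcripts exactly. A read with mismatches can still be placed on the wrong copy, and values of 5730416F02Rik are uncertain to that extent. Capg was nearly level between mice, with means over the 5 times of 14.94, 15.07, 15.04 and 15.14 in WT and 14.92, 14.81, 14.95 and 15.01 in Cpeb4-/- mice.

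5730416F02Rik took 1 of 2 levels in each mouse and kept it at every time. At 0 hr the WT mice 25, 88, 69 and 87 were at 3.19, 3.46, 3.41 and 3.22, and the Cpeb4-/- mice 3, 62, 2 and 55 at 7.49, 7.32, 7.49 and 3.55. At 9 hr the WT mice were at 3.35, 3.96, 3.73 and 3.17 and the Cpeb4-/- mice at 7.33, 7.14, 7.70 and 3.34. Cpeb4-/- mouse 55 was at 3.32 to 3.75 at the 5 times and so at the WT level, while the other 3 knockout mice were at 7.14 to 7.70. The genotype difference was 3.14 ± 0.73 at 0 hr (adjusted p = 0.065 with limma), 2.97 ± 0.83 at 1 hr (0.075) and 2.76 ± 0.75 at 3 hr (0.070). With the mouse as a block it was called at all 3 times (adjusted p of 0.015, 0.0094 and 0.016). These p-values are likely too small, because each mouse kept its level and the fit shares 1 correlation over all genes. Without mouse 55 it was 4.11, 4.0 and 3.75 at 0, 1 and 3 hr (adjusted p of 6.4e-08, 0.00020 and 4.5e-06), and for the late times 3.80 (6 hr) and 3.84 (9 hr). Without WT mouse 88 the value at 3 hr was 2.78 (0.038). No change with LPS was called. The mean change from 0 to 3 hr was 0.23 in WT (adjusted p = 0.29) and −0.15 in Cpeb4-/- cells (0.91), and the latter was 0.04 after quantile normalization.

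Hal (chromosome 10, 93488768 to 93516761, protein-coding) divided the WT mice. At 0 hr mice 25 and 87 were at 8.40 and 8.19 and mice 88 and 69 at 5.12 and 5.36, whereas the Cpeb4-/- mice 3, 62, 2 and 55 were at 9.86, 9.56, 10.02 and 9.08. At 6 hr the WT mice 25, 88, 69 and 87 were at 6.34, 5.23, 5.09 and 6.53 and the Cpeb4-/- mice at 7.23, 6.84, 7.28 and 6.67. At 9 hr the values were 6.32, 5.01, 5.05 and 6.33 in WT and 8.16, 7.94, 8.30 and 7.19 in Cpeb4-/-. All knockout libraries lay above all WT libraries at each of the 5 times. Each batch held 1 WT mouse of the higher and 1 of the lower level, and so did the cage that mice 88 and 87 shared. The difference was 2.86 ± 0.67 at 0 hr (adjusted p = 0.068 with limma), 2.69 ± 0.69 at 1 hr (0.068) and 2.39 ± 0.56 at 3 hr (0.046). The fit that blocks on the mouse gave an adjusted p of 0.009, 0.0059 and 0.013. Without WT mouse 25 or 87 the difference at 0 hr was 3.40 (0.034) or 3.33 (0.029), and without WT mouse 69 that at 1 hr was 2.23 (0.048). The call at 3 hr was lost without any 1 of the knockout mice or WT mouse 69 (0.077 to 0.14), with batch as a covariate (0.074) and without the variance trend (0.088).

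Hal fell in Cpeb4-/- cells after LPS and came back in part. It dropped by 0.71 ± 0.24 (SE) from 0 to 3 hr (adjusted p = 0.015 with limma), in 4 of 4 mice, and this call was lost without mouse 62 (−0.66, adjusted p = 0.071). From 0 to 6 hr the drop was 2.62 on average, between 2.41 and 2.74 in the 4 mice. From 6 to 9 hr the level rose in all 4 knockout mice by 0.52 to 1.11, and it fell in all 4 WT mice by 0.02 to 0.21. In WT mice 25 and 87 Hal went from 8.40 and 8.19 at 0 hr to 6.32 and 6.33 at 9 hr, and in mice 88 and 69 from 5.12 and 5.36 to 5.01 and 5.05. In WT as a whole the change from 0 to 3 hr was −0.24 ± 0.97 (adjusted p = 0.85 with limma). That standard error holds the spread between the 2 WT levels. Blocking on the mouse gave −0.24 ± 0.12 (adjusted p = 0.086).

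Amdhd1 (chromosome 10, 93523338 to 93540111) encodes a later enzyme of histidine degradation, imidazolonepropionase, and starts 6576 bases beyond the end of Hal. It was 1 of the 2 genes most like Hal over the 40 libraries, with a Pearson r of 0.85. At 0 hr it was at 1.64 to 3.07 in WT and 2.97 to 4.57 in Cpeb4-/- mice, and the difference was 1.53 ± 0.41 at 0 hr (adjusted p = 0.097), 1.5 ± 0.34 at 1 hr (0.056) and 1.22 ± 0.28 at 3 hr (0.044). At 6 and 9 hr it was −0.18 and 0.39. Amdhd1 was weakly expressed. Over the libraries of 0, 1 and 3 hr its mean passed the filter on low values in Cpeb4-/- but not in WT cells. Its genotype differences thus rest on the level in the knockout and are given as a description. Its means over time followed the same split of the WT mice, with 2.51 and 2.34 in mice 25 and 87 and 1.90 and 1.78 in mice 88 and 69. Lta4h, the neighbour on the other side of Hal and an enzyme of leukotriene synthesis, differed by 0.08 ± 0.06 at 0 hr (adjusted p = 0.47) and was split the other way, with means of 9.67 and 9.63 in WT mice 25 and 87 and 9.94 and 9.89 in mice 88 and 69. The gene most like Hal was Neo1, the receptor neogenin, on chromosome 9 (58874679 to 59036614), with r = 0.96. Neo1 was higher in Cpeb4-/- cells by 1.71 ± 0.36 at 0 hr (0.051), 2.11 ± 0.35 at 1 hr (0.024) and 1.74 ± 0.32 at 3 hr (0.019), with means over time of 4.25 and 4.35 in WT mice 25 and 87 and 3.32 and 3.12 in mice 88 and 69. These correlations are descriptions over libraries that share mice and times.

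**Figure D3:**
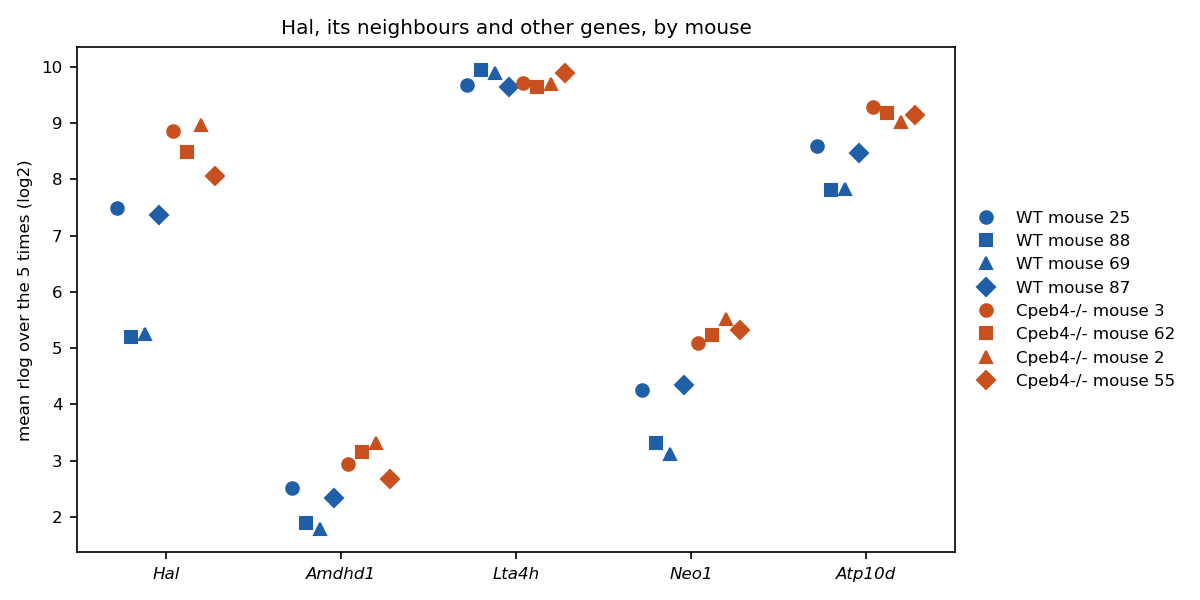
Mean level over the 5 times (rlog, log2, vertical axis) of Hal, its neighbours Amdhd1 and Lta4h, Neo1 and Atp10d, with 1 point for each of the 8 mice (WT blue, Cpeb4-/- orange). For Hal, Amdhd1, Neo1 and Atp10d, WT mice 25 and 87 lie above WT mice 88 and 69 and below the 4 Cpeb4-/- mice, and for Lta4h they lie below WT mice 88 and 69.

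Atp10d (chromosome 5, 72203329 to 72298771) is listed as a transcribed pseudogene in RefSeq. The WT mice 25, 88, 69 and 87 were at 8.31, 7.63, 7.81 and 8.08 at 0 hr and at 8.49, 7.50, 7.49 and 8.63 at 9 hr. The Cpeb4-/- mice 3, 62, 2 and 55 were at 8.86, 8.83, 8.72 and 8.59 at 0 hr and at 9.36, 9.19, 8.74 and 9.09 at 9 hr. The genotypes did not overlap at any time, and WT mice 25 and 87 were the nearer to the knockout, as for Hal. Atp10d was higher in Cpeb4-/- cells by 0.79 ± 0.13 at 0 hr (adjusted p = 0.017 with limma), 1.03 ± 0.16 at 1 hr (0.019) and 1.06 ± 0.15 at 3 hr (0.0086). The difference at 6 hr was 1.00, which is 2.00-fold, and at 9 hr 1.07. The call at 0 hr was lost without knockout mouse 2, 3 or 62 (0.054 to 0.072) and that at 1 hr without knockout mouse 3, 55 or 62 (0.063 to 0.081).

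Atp10d rose after LPS in both genotypes. From 0 to 3 hr it rose by 0.57 ± 0.21 in WT (adjusted p = 0.029) and by 0.84 ± 0.08 in Cpeb4-/- cells (5.8e-08), in 4 of 4 mice of each, and in Cpeb4-/- it had already risen by 0.41 ± 0.08 at 1 hr (0.00031). The WT rise fell short of the threshold without mouse 87 (0.53, adjusted p = 0.090) or mouse 88 (0.53, 0.067), and with the mouse as a block its adjusted p was 0.00021. From 3 to 9 hr the level went down in every mouse, by 0.16 to 0.83 in WT and 0.33 to 0.81 in Cpeb4-/-.

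Dennd3 (chromosome 15, 73512560 to 73572242, protein-coding) was at 3.56, 3.69, 4.71 and 3.82 in WT mice 25, 88, 69 and 87 at 0 hr and at 4.71, 5.13, 4.86 and 4.49 in Cpeb4-/- mice 3, 62, 2 and 55. At 9 hr the WT mice were at 3.74, 4.40, 5.90 and 4.17 and the Cpeb4-/- mice at 7.05, 6.93, 6.53 and 6.50. WT mouse 69 was the highest WT mouse at every time and lay within the knockout range at 0 and 3 hr. The difference was 0.85 ± 0.24 at 0 hr (adjusted p = 0.11 with limma), 1.03 ± 0.24 at 1 hr (0.062) and 1.09 ± 0.32 at 3 hr (0.084), none of them called, and 1.34 at 6 hr and 2.20 at 9 hr. Without mouse 69 it was 1.11, 1.30 and 1.44 at 0, 1 and 3 hr (adjusted p of 0.013, 0.0041 and 0.013). The fit that blocks on the mouse gave an adjusted p of 0.092, 0.013 and 0.011. Batch 1 alone gave 2.92 at 9 hr, and batch 2, which holds mouse 69, gave 1.48.

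Dennd3 also moved with time. From 0 to 3 hr it rose by 0.70 ± 0.19 in Cpeb4-/- cells (adjusted p = 0.0034), and this call was lost without mouse 55 (0.48, 0.054). In WT the change was 0.47 ± 0.36 (0.28), and it was called without mouse 69 (0.38, 0.035) or with the mouse as a block (0.0047). From 6 to 9 hr it went down in all 4 WT mice, by 0.08 to 0.78, and up in all 4 knockout mice, by 0.23 to 0.46.

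Spint1 (chromosome 2, 119237360 to 119249535, protein-coding) was higher in every knockout library than in any WT library of the same time. At 0 hr WT mice 25, 88, 69 and 87 were at 3.91, 4.49, 4.68 and 4.39 and Cpeb4-/- mice 3, 62, 2 and 55 at 5.47, 5.26, 5.26 and 5.18. At 6 hr the WT values were 3.98, 3.81, 4.33 and 3.91 and the Cpeb4-/- values 4.65, 4.65, 4.67 and 4.42. At 9 hr they were 4.08, 4.43, 4.70 and 4.55 in WT and 6.56, 5.77, 5.80 and 5.73 in Cpeb4-/-. It was higher in Cpeb4-/- cells by 0.93 ± 0.16 at 0 hr (adjusted p = 0.021 with limma), 0.75 ± 0.12 at 1 hr (0.024) and 0.55 ± 0.13 at 3 hr (0.046). The call at 0 hr was lost without knockout mouse 2, 3 or 62 (0.058 to 0.081), that at 1 hr without knockout mouse 3, 55 or 62 or WT mouse 88 (0.054 to 0.095), and that at 3 hr without any 1 of the knockout mice or WT mouse 25, 69 or 87 (0.063 to 0.15). The call at 3 hr was also lost with batch as a covariate (0.078) and after quantile normalization (0.061). With the mouse as a block the adjusted p was 0.00033, 0.0016 and 0.013.

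Spint1 went down and then up in knockout cells. It dropped by 0.72 ± 0.11 from 0 to 3 hr in Cpeb4-/- (adjusted p = 2.1e-05) and by 0.34 ± 0.16 in WT (0.083, or 0.047 with the mouse as a block and 0.035 without mouse 25), in 4 of 4 mice of each. From 6 to 9 hr it rose in all 8 mice, by 0.10 to 0.65 in WT and by 1.12 to 1.91 in Cpeb4-/-, and the difference went from 0.59 to 1.52, or 2.87-fold.

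Shisa3 (chromosome 5, 67607883 to 67613987, protein-coding) was the most strongly induced of the 8 genes. At 0 hr it was at 5.72, 5.72, 5.73 and 5.73 in WT mice 25, 88, 69 and 87 and at 5.72, 5.78, 5.74 and 5.74 in Cpeb4-/- mice 3, 62, 2 and 55. All 8 lay between 5.72 and 5.78 (SD of 0.01 in WT and 0.03 in Cpeb4-/-). Shrinkage of rlog values can draw libraries together like this where reads are few, and counts were not used here. The level of Shisa3 at 0 hr, and the small genotype difference then, are uncertain to that extent. At 3 hr the WT mice were at 9.68, 10.17, 10.09 and 9.29 and the Cpeb4-/- mice at 10.00, 9.95, 9.84 and 9.94. At 6 hr the values were 10.70, 11.13, 10.85 and 10.44 in WT and 10.50, 10.25, 10.23 and 10.55 in Cpeb4-/-, and at 9 hr 9.67, 10.03, 9.98 and 9.27 against 8.58, 8.38, 7.97 and 8.55. The genotypes overlapped up to 6 hr and lay apart at 9 hr. From 0 to 1 hr Shisa3 rose by 0.97 ± 0.17 in WT (adjusted p = 0.00052 with limma) and 1.02 ± 0.06 in Cpeb4-/- cells (9.8e-10), and from 0 to 3 hr by 4.08 ± 0.17 (1.3e-10) and 4.19 ± 0.06 (2.3e-17). Between genotypes Shisa3 differed by 0.02 ± 0.08 before LPS (0.91), 0.06 ± 0.11 after 1 hr (0.69) and 0.12 ± 0.16 after 3 hr (0.66), of which the last 2 changed sign without WT mouse 87 (−0.03 and −0.05). It was −0.40 at 6 hr and −1.37 at 9 hr, in both batches alike at 9 hr (−1.37 each). From 6 to 9 hr the level went down by 0.87 to 1.17 in the WT mice and by 1.88 to 2.26 in the Cpeb4-/- mice, ranges that do not overlap.

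Tnfaip8l3 (chromosome 9, 54025606 to 54068411, protein-coding) was weakly expressed before LPS, at 1.78, 2.12, 1.98 and 2.17 in WT mice 25, 88, 69 and 87 and 2.11, 2.51, 2.48 and 1.82 in Cpeb4-/- mice 3, 62, 2 and 55. At 6 hr the WT mice were at 3.40, 4.30, 4.78 and 3.94 and the Cpeb4-/- mice at 4.64, 4.41, 4.34 and 4.56, and at 9 hr 2.46, 2.57, 2.91 and 2.89 stood against 4.68, 4.2, 4.05 and 4.14. The genotypes overlapped at 0, 1, 3 and 6 hr and were apart at 9 hr. From 0 to 3 hr the gene rose by 1.31 ± 0.19 in WT (adjusted p = 3.6e-05 with limma) and by 1.21 ± 0.23 in Cpeb4-/- cells (0.00024). The genotype difference at 3 hr was 0.12 ± 0.23 (0.78), and −0.09 without knockout mouse 55. Without the filter on low values it was 0.21 ± 0.18 at 0 hr (0.67) and 0.22 ± 0.21 at 1 hr (0.56). At 6 hr it was 0.38, with 0.15 without WT mouse 25 and 0.60 without WT mouse 69. At 9 hr it was 1.56, or 2.94-fold, with 1.92 in batch 1 and 1.19 in batch 2. From 6 to 9 hr Tnfaip8l3 went down in all 4 WT mice, by 0.94 to 1.87, and changed by −0.42 to 0.03 in the Cpeb4-/- mice.

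Shisa3 and Tnfaip8l3 are the 2 genes whose genotypes overlapped at 0, 1, 3 and 6 hr and not at 9 hr, so their promoters are shown, from 250 bases before to 50 after the start site, as given by RefSeq (GRCm38.p6, the assembly of mm10). The promoter of Shisa3 is chr5:67607633-67607932 on the plus strand and that of Tnfaip8l3 is chr9:54068362-54068661 on the minus strand.
Shisa3: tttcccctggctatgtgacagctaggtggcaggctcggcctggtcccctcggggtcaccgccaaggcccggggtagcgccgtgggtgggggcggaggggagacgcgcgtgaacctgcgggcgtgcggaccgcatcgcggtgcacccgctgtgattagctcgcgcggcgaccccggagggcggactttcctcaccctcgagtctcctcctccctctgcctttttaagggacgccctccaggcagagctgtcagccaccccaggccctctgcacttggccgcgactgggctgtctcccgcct
Tnfaip8l3: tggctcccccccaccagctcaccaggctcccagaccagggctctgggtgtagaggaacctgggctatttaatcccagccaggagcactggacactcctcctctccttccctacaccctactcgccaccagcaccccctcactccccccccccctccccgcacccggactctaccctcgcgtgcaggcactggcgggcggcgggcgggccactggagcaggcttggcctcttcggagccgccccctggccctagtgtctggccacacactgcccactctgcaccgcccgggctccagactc
Both were searched on either strand for the NF-kB motif, the AP-1 motif TGANTCA, the cyclic AMP response element TGACGTCA, the TATA box TATAAA, the interferon-stimulated response element and the C/EBP motif TTGCNNAA. None of these letters occurred in either window, so no base is in capitals. Among all 27025 RefSeq promoters of this length, and among the 10014 of expressed genes, 4.35% and 5.14% hold the NF-kB motif, 7.93% and 5.26% the AP-1 motif and 1.88% and 3.29% the cyclic AMP element. The TATA box is in 14.2% and 7.32%, the interferon element in 3.49% and 3.30% and the C/EBP motif in 10.8% and 8.51%. The windows are 70.0% and 69.3% G and C, against a median of 60.7% for expressed genes, and hold 28 and 13 CpG, against a median of 21. Of the other genes, the promoters of Hal and Spint1 were in the table. That of Hal holds an AP-1 match, a C/EBP match and a TATA box on the other strand, and that of Spint1 an AP-1 match. Plekha7, 5730416F02Rik, Dennd3 and Atp10d had no entry there, so their promoters could not be searched.

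Of the 8 genes, 7 have an annotated 3′ UTR, the part of an mRNA after its stop codon, in GENCODE vM21 (longest form per gene), and it was searched for the CPE letters TTTTAT and TTTTAAT and for the core letters of AU-rich elements, ATTTA. The 3′ UTR of Tnfaip8l3 (3670 bases) holds 10 CPE matches and 7 ATTTA. The RefSeq form of the gene printed above ends earlier, and 4 of these 10 matches lie within it and 6 beyond it. On the longest GENCODE forms, a count of 10 or more CPE matches occurs in 3.57% of 10850 expressed genes, whose median 3′ UTR is 1296 bases. Plekha7 (1313 bases) holds 2 CPE matches, Atp10d (1529 bases) 2, Hal (2982 bases) 1, which lies beyond the end of its RefSeq form, and Shisa3 (2517 bases) 1, whereas Dennd3 (1288 bases) and Spint1 (565 bases) hold none. At least 1 CPE match is present in 66.4% of the expressed genes. Shisa3 holds 12 ATTTA, Atp10d 5, Hal 4, Plekha7 3, Dennd3 1 and Spint1 none. At least 1 ATTTA is present in 74.5% of the expressed genes, and the size of these counts was not compared with other genes. On the longest GENCODE forms, only Plekha7 has a CPE match in the last 200 bases, as do 29.3% of the expressed genes. The RefSeq form of Tnfaip8l3 ends at 54025606. Its matches at chr9:54025653-54025682 and chr9:54025754-54025783 lie in the last 200 bases of that form. The match of Plekha7 nearest to the end (chr7:116123610-116123639, minus strand), that of Tnfaip8l3 nearest to the end of its RefSeq form (chr9:54025653-54025682, minus strand) and the match of Shisa3 (chr5:67612404-67612433, plus strand) are shown with the searched CPE letters in capitals. The stretch of Tnfaip8l3 also holds TTTTGT, a form that was not searched and is left in lower case.
Plekha7: gccaaaataagaTTTTATtttttgccttta
Tnfaip8l3: aaagttttgtaaTTTTATccacattactgc
Shisa3: cagtattccacaTTTTATgtgccactgtgt
A match is a description of the letters and not evidence of binding.

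The variation of each gene over the 40 libraries was divided into shares of its sum of squares. For Plekha7 57.8% lay between genotypes and 34.0% between mice of the same genotype, and for 5730416F02Rik 58.7% and 40.5%. Hal had 25.1% between mice of a genotype, Atp10d 17.9% and Dennd3 17.4%, against a median of 3.9% over all 13103 expressed genes. A share between mice as large as that of 5730416F02Rik occurred in 0.51% of all genes, and one as large as that of Plekha7 in 1.07%. Spint1 had 5.44% between mice, Tnfaip8l3 1.88% and Shisa3 0.662%. Time held 96.0% of the variation of Shisa3 and 76.2% of that of Tnfaip8l3, against a median of 82.4%, and 0.0867% of that of 5730416F02Rik. The share of genotype by time was 8.24% for Spint1, 8.00% for Tnfaip8l3 and 5.47% for Dennd3, against a median of 1.96%. The genotype shares include the times used to choose the genes and are descriptions.

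**Figure D4:**
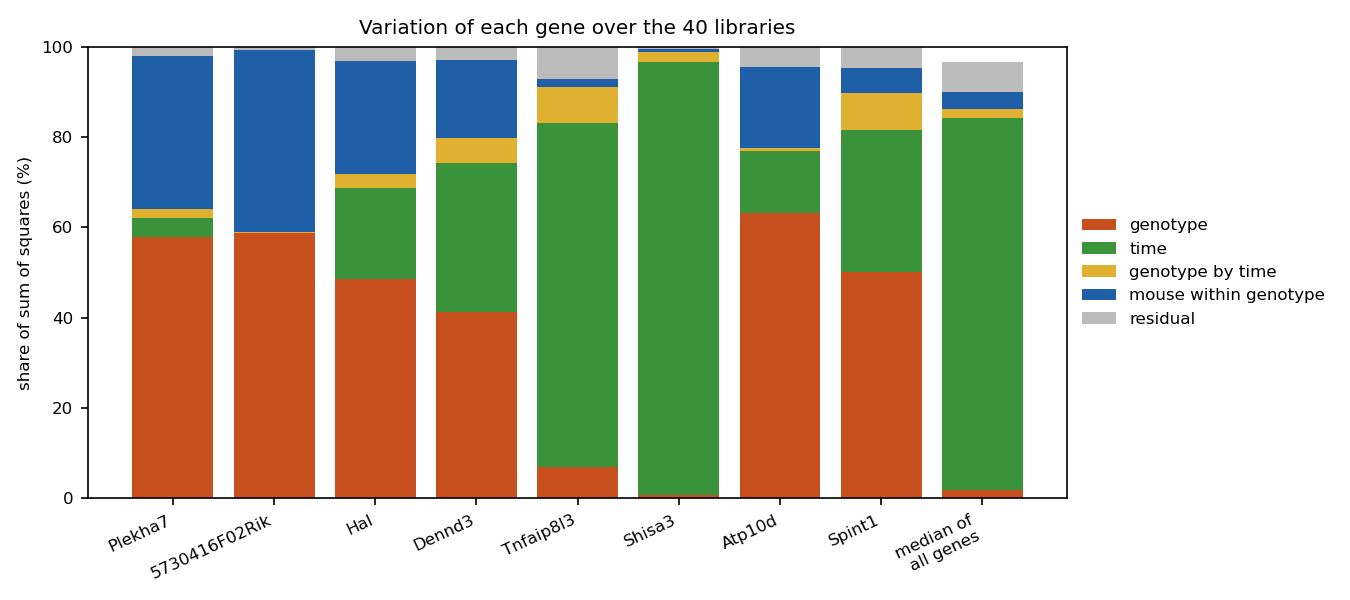
Share of the sum of squares over the 40 libraries (%, vertical axis) that lies between genotypes, between times, in genotype by time, between mice of a genotype and in the rest, for each of the 8 genes and as the median of each share over 13103 genes (medians need not add to 100). The share between mice is 34.0% for Plekha7 and 40.5% for 5730416F02Rik, and time holds 96.0% for Shisa3.

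The response to LPS up to 3 hr was compared between genotypes in the 24 libraries of 0, 1 and 3 hr. None of the 8 genes passed an adjusted p under 0.05 with limma, against 0.282% of all 13131 genes tested, and none had an unadjusted p under 0.05, against 5.14%. With the mouse as a block none was called either, against 0.624% of all genes, and 3 (Hal, Spint1 and Atp10d) had an unadjusted p under 0.05, against 8.53%. The differences in change were −0.47 ± 1.07 for Hal, −0.38 ± 0.19 for Spint1, −0.38 ± 1.28 for 5730416F02Rik, 0.27 ± 0.24 for Atp10d and 0.23 ± 0.43 for Dennd3. They were 0.11 ± 0.18 for Shisa3, −0.10 ± 0.31 for Tnfaip8l3 and 0.01 ± 0.90 for Plekha7. These standard errors leave out that each mouse gave all times. Blocking on the mouse gave −0.47 ± 0.13 for Hal (adjusted p = 0.16), −0.38 ± 0.16 for Spint1 (0.51) and 0.27 ± 0.11 for Atp10d (0.48). Within a genotype, 1 of the 8 genes was called between 0 and 1 hr in WT (Shisa3) against 29.5% of all genes, and 2 in Cpeb4-/- (Shisa3 and Atp10d) against 47.4%. Between 0 and 3 hr 3 were called in WT (Shisa3, Atp10d and Tnfaip8l3) against 64.2%, or 6 against 70.5% with the mouse as a block. In Cpeb4-/- cells 7 were called, all but 5730416F02Rik, against 73.4%.

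At 6 and 9 hr the genes were ranked by the size of the difference among 13039 and 13008 expressed genes, as a description of the choice. At 6 hr Plekha7 was at rank 1, 5730416F02Rik at 5, Dennd3 at 21, Hal at 27, Atp10d at 42, Spint1 at 251, Shisa3 at 765 and Tnfaip8l3 at 886. At 9 hr 5730416F02Rik was at rank 4, Plekha7 at 5, Hal at 7, Dennd3 at 8, Tnfaip8l3 at 15, Spint1 at 17, Shisa3 at 20 and Atp10d at 45. The neighbours of Tnfaip8l3 (0.38) in the order at 6 hr were Med12l (−0.38) and Cd4 (−0.38), and those of Atp10d (1.07) at 9 hr were Draxin (1.07) and BC035044 (−1.05). The choice was thus not a cut at 1 rank.

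The genes most like the others over the 40 libraries were named by the highest Pearson r. For Plekha7 they were Rps15a-ps8 (r = 0.94), a pseudogene on chromosome 4, and a row without a symbol (0.93). Rps15a-ps8 showed the same mouse as an exception, with means over time of 7.17, 7.32 and 7.25 in WT mice 25, 88 and 69, 3.32 in WT mouse 87 and 2.99 to 3.29 in the Cpeb4-/- mice. It is 92.2% identical to its parent Rps15a over 387 bases, so its values are uncertain. Rps15a (chromosome 7, 118104374 to 118116147) had means of 11.55, 11.73, 11.60 and 12.06 in WT mice 25, 88, 69 and 87 and 11.69 to 11.96 in the Cpeb4-/- mice, with WT mouse 87 the highest. For 5730416F02Rik they were Gm10698 (0.93), another pseudogene, and Mmp8 (0.75). Gm10698 was at means of 4.09 to 4.30 in the WT mice, 4.01 in Cpeb4-/- mouse 55 and 5.23 to 5.52 in the other knockout mice. For Shisa3 they were Edn1, which encodes endothelin 1, and the collagenase Mmp13 (0.98 each), whose differences at 9 hr were −0.58 and −0.18. For Tnfaip8l3 they were Itga1, an integrin subunit, and Rbms1, an RNA-binding protein (0.93 each). Itga1 was higher in Cpeb4-/- cells by 0.76 ± 0.15 at 3 hr (adjusted p = 0.028). For Dennd3 they were Pla2g7, a platelet-activating factor acetylhydrolase, and Acpp, an acid phosphatase (0.84 each), and Pla2g7 was higher in Cpeb4-/- cells by 0.69 ± 0.08 at 0 hr (0.0027). For Atp10d they were Slc25a32 (0.80) and Utp20 (0.76), and for Spint1 Slc22a4 (0.87) and Pdia4 (0.86).

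Apart from Amdhd1 and Lta4h, the nearest expressed genes on either side were compared in the same way. Their r over the 40 libraries with the gene between them was −0.43 and −0.34 for 1110004F10Rik and Rps13 beside Plekha7, and −0.07 and −0.04 for 2810403D21Rik and Hmgn5 beside 5730416F02Rik. It was −0.46 and 0.28 for Commd8 and Nfxl1 beside Atp10d, 0.26 and 0.48 for Zfyve19 and Rhov beside Spint1, and 0.08 and 0.00 for Rab39 and Dmxl2 beside Tnfaip8l3. Ptk2 and Slc45a4 beside Dennd3 had 0.65 and −0.28, and Bend4 and Atp8a1 beside Shisa3 −0.71 and 0.15. None of these 14 neighbours had an adjusted p under 0.05 between genotypes at 0, 1 or 3 hr.

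The pathways of the 8 genes were described by lists, whose counts stand beside 1.31%, 1.91% and 3.68% of all genes called at 0, 1 and 3 hr and 17.6%, 35.3% and 23.4% with an unadjusted p under 0.05. Nothing particular to a list is read from these counts. Of 8 genes of histidine and histamine metabolism, 6 were tested at 3 hr. Hal was higher and Hnmt, which methylates histamine, was lower in Cpeb4-/- cells (−0.26 ± 0.06, adjusted p = 0.042), with none called at 0 or 1 hr. Amdhd1 also passed the threshold at 3 hr. It lay near the filter on low values and its difference rests on the level in the knockout, as given above, so it is not counted as called. The median difference of this list was 0.05 at 3 hr, beside 0.008 over all genes. No member of the TNFAIP8 family was called between genotypes at 0, 1 or 3 hr (0 of 3, 3 and 4 tested, with 1, 1 and 2 at an unadjusted p under 0.05). Of 14 genes tested of the PLEKHA family and the junction partners of PLEKHA7, 3 were lower at 3 hr, Plekha7, the tetraspanin Tspan33 (−0.64 ± 0.13, 0.031) and Plekha2 (−0.24 ± 0.06, 0.046). Of 18 genes of the DENN family with Rab12, Ulk1 and Ulk2, Dennd2a was higher at 0, 1 and 3 hr (0.62 ± 0.09, 0.0081 at 0 hr) and Dennd4a at 3 hr (0.38 ± 0.09, 0.046). Among the Shisa family and the Wnt and Fgf receptors (10, 11 and 9 tested), the receptor Fgfr1 was higher at all 3 times (1.02 ± 0.15 at 0 hr, 0.011), and Shisa9 (0.52 ± 0.08, 0.021) and Fzd7 (0.38 ± 0.08, 0.039) at 1 hr. Of the P4-ATPases and their CDC50 subunits (11, 11 and 12 tested) Atp10d alone was called, with a list median of 0.10, 0.27 and 0.06. In the list of Kunitz inhibitors and HGF activation (9, 9 and 8 tested), Spint1 was called at all 3 times, the protease hepsin (Hpn) was lower at 0 hr (−0.41 ± 0.09, 0.048) and 1 hr (−0.66 ± 0.13, 0.036), and urokinase (Plau) was higher at 0 hr (0.34 ± 0.06, 0.031) and 3 hr (0.37 ± 0.06, 0.011). None of 5 glucosylceramide enzymes was called at 0, 1 or 3 hr, with 1, 1 and 0 at an unadjusted p under 0.05.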

How the data were processed

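The authors isolated poly(A) RNA from BMDMs, aligned 50-bp reads to mm10 with STAR, counted them per gene with featureCounts and deposited DESeq2 rlog values, a log2 scale, for 27179 genes in 40 libraries. Counts were not used here, so the depth behind each value is unknown. Groups were taken from the labels, and 0 columns were left unused. Genotypes (4 against 4 libraries at 0, 1 and 3 hr), changes from 0 hr and their difference were fitted across all genes with limma 3.58.1 in R 4.3.3 (eBayes with trend), after a filter at a mean rlog of log2 of 5 (2.32), with Benjamini-Hochberg adjustment and a threshold of 0.05. The scripts were tested on simulated data. Standard errors with a p are from limma. Libraries of 1 mouse deviated together (median r of 0.29 over 80 pairs, 68 of them over 0.1, against −0.09 for other mice), and each mouse gave all times, so a fit with the mouse as a block was the alternative. Other alternatives were no filter, a filter at 5, no variance trend, quantile normalization, batch as a covariate and leaving out each mouse. The 2 genes most correlated with each of the 8, their neighbours and the list members called were named by rule. The 8 genes, lists and rules were chosen with earlier results of these data known. Tests over mice from few cages measure the spread between these mice only.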

Additional observations from a re-analysis of the deposited data

Results flagged for a closer look

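In 10 of the 80 groups of 4 libraries (8 genes, 2 genotypes, 5 times), 1 mouse lay far from the others, its gap to the nearest of them divided by the range of the group being above Dixon's critical value for 4 values. Chance flags about 1 in 20 groups, and the 5 times share their mice. For 5730416F02Rik in Cpeb4-/- cells it was mouse 55 at every time, with ratios of 0.956, 0.915, 0.975, 0.981 and 0.873 in the order of time. For Plekha7 in WT it was mouse 87 at 3 hr (0.86). For Dennd3 in WT it was mouse 69 at 1 hr (0.869) and 3 hr (0.908). For Spint1 in Cpeb4-/- it was mouse 55 at 6 hr (0.902), the lowest, and mouse 3 at 9 hr (0.917), the highest.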

How the results depend on the processing

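The cause of the changes given here was not tested. Without the filter on low values, the genes called between genotypes numbered 50, 53 and 167 at 0, 1 and 3 hr, and 0 of the 8 genes was called at each time. With a mean rlog of at least 5, which tests fewer genes, 1, 1 and 2 of the 8 were called at 0, 1 and 3 hr. Among all genes 134 of 11076, 218 of 11053 and 483 of 10995 were called. Spint1, Dennd3, 5730416F02Rik and Tnfaip8l3 at these times and Plekha7 at 0 and 3 hr lay below that filter and so were not tested. With batch as a covariate 146 genes were called at 1 hr and 194 at 3 hr, with 1 of the 8 at 3 hr, and without the variance trend 230 at 3 hr, with 2 of the 8. With the mouse as a block 346, 3581 and 1164 genes were called at 0, 1 and 3 hr, with 5 of the 8 at 0 hr and 6 at 1 hr, and 6 of the 8 changed in WT from 0 to 3 hr. The difference in the change from 0 to 3 hr was called for 82 genes with the block and 21 after quantile normalization. After quantile normalization the direction turned for Tnfaip8l3 from 0 to 1 hr in WT (−0.10) and Cpeb4-/- (−0.06), for 5730416F02Rik in Cpeb4-/- from 0 to 1 hr (0.01) and 0 to 3 hr (0.04), and for Plekha7 in the difference of changes (−0.07).

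Leaving out each mouse in turn, 44 to 163 genes were called at 0 hr (0 to 4 of the 8), 40 to 2440 at 1 hr (0 to 4) and 76 to 2584 at 3 hr (1 to 5). From 0 to 1 hr 2606 to 3360 changed in WT (1 to 1 of the 8) and 4735 to 6092 in Cpeb4-/- (2 to 2). From 0 to 3 hr 7463 to 8108 changed in WT (2 to 4) and 8892 to 9259 in Cpeb4-/- (6 to 7). The changes differed between genotypes for 1 to 36 genes (0 to 0 of the 8). At 6 and 9 hr, the times used to choose the genes, the libraries did not overlap in 12 to 14 of the 16 cases. With all mice it was 12 of the 16, beside 20.2% and 16.9% of all genes. The share over all genes was not taken with a mouse left out, and fewer libraries overlap less easily, so nothing is read from this range. The direction turned without WT mouse 87 for Shisa3 at 1 hr (range over the mice left out −0.03 to 0.13), at 3 hr (−0.05 to 0.25) and in the difference of changes (−0.07 to 0.23), and for Dennd3 from 0 to 1 hr in WT (−0.10 to 0.04). It turned for Tnfaip8l3 without knockout mouse 55 at 3 hr (−0.09 to 0.25), without WT mouse 69 from 0 to 1 hr in WT (−0.08 to 0.20) and without knockout mouse 2 or 62 or WT mouse 25 in the difference of changes (−0.44 to 0.05). It turned for Spint1 from 0 to 1 hr in WT without mouse 25 (−0.14 to 0.13), for 5730416F02Rik from 0 to 1 hr in Cpeb4-/- without mouse 55 (−0.10 to 0.03) and for Plekha7 in the difference of changes without knockout mouse 2 or WT mouse 25 (−0.16 to 0.18). None of these values passed the threshold. The depth of the libraries is unknown here, and rlog values understate changes of low genes.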
